A study of Mus musculus with 4 samples.

Results

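The adipogenic and lipid droplet genes described here are 10 genes, S3-12, Adfp, Pparg, Cebpa, Cebpb, Cebpd, Fabp4, Lpl, Cd36 and Adipoq, among the 27745 gene and transcript names on the arrays. They were chosen by name, with earlier results of these same arrays known, so the density effects and genotype differences given for them are descriptions. S3-12 is the older name of Plin4 and Adfp that of Plin2, as RefSeq lists them. The members were read by 16 probes, and all of them are accounted for.

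RNA came from cultured mouse embryonic fibroblasts (MEFs) of strain C57BL/6J with the genotype given as Lats2-/- (here labelled KO) or Lats2+/+ (labelled WT). LATS2 is a kinase of the Hippo pathway, which holds back the coactivators YAP and TAZ when cells are crowded. Low density cultures were taken after 48 h, before confluence, and high density cultures after 3 to 5 days, so density and time in culture changed together. The cells grew in ordinary serum medium, and neither the labels nor the methods mention an adipogenic treatment. For each genotype, RNA of both densities was hybridised on 2-colour arrays, and the 2 arrays of a genotype carried the dyes in opposite orientations.

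Such a dye swap was taken as a technical repeat, so each genotype and density gave 1 sample, no difference has a replicate check, and no test was made. The error of a value is given by the 2 arrays. Over all probes measured, the pooled standard deviation of a single array, estimated from the 2 arrays of each pair, came to 0.141 log2 units for the density effect in labelled WT cells and 0.205 in labelled KO cells. It was 0.159 for the genotype difference at low density and 0.21 at high density. Both WT arrays lay on 1 slide and the KO arrays on 2 others, so slide and genotype cannot be told apart. The Lats2 signal cannot check the labels: of 4 Lats2 probes, 3 were higher on the arrays labelled KO and 1 was lower. The 3 differed by 1.19 to 1.39 log2 units at low and 0.91 to 1.49 at high density. The other gave -0.63 at low and -1.26 at high density. Which probes lie in the deleted part was not determined. The study presents a western blot of LATS2 protein in such fibroblasts as showing the knockout, which is not analysed here. Every direction given here between genotypes rests on the labels. Because RNA of a whole culture was measured, fewer cells expressing a gene and less RNA per cell cannot be told apart.

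Adipocyte differentiation follows a known order. The C/EBPβ and C/EBPδ factors act early and switch on Pparg, whose product, the nuclear receptor PPARγ, then sustains C/EBPα and activates the genes of fat storage. Among those are the fatty acid carrier Fabp4, the secreted lipase Lpl, the fatty acid receptor Cd36, the hormone adiponectin (Adipoq) and the proteins that coat lipid droplets. Fibroblasts from embryos include cells that can enter this programme, and crowding is a known prelude to it. TAZ, which LATS kinases restrain, is known to repress PPARγ activity.

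The stretch before the transcription start is shown for 3 members, Pparg because its product commands the programme, and S3-12 and Adfp because these related coat protein genes behaved so differently. The sequences are those of RefSeq (GRCm38.p6), 250 bases that end at the base before the start, written 5′ to 3′ on the strand of the gene. Of the 10 members, 7 had an entry, with 9 starts in all. For Pparg the most downstream of its 3 listed starts is shown. Both strands were searched for the C/EBP motif TTGCNNAA, the nuclear receptor core site AGGTCA, the PPAR and RXR direct repeat AGGTCANAGGTCA (which holds the core site) and the TEAD motif GGAATG. Capitals mark the matches.
Pparg (chr6:115421816-115422065, plus strand): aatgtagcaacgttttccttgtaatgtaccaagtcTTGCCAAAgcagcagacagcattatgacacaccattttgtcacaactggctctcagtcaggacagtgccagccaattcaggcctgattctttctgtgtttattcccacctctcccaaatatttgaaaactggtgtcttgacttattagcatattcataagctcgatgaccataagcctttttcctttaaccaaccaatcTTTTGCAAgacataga
S3-12 (chr17:56109783-56110032, minus strand): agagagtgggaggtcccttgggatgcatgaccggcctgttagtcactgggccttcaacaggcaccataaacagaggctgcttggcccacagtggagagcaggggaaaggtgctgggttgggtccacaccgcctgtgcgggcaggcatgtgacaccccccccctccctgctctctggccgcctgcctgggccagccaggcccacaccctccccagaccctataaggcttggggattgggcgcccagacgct
Adfp (chr4:86670060-86670309, minus strand): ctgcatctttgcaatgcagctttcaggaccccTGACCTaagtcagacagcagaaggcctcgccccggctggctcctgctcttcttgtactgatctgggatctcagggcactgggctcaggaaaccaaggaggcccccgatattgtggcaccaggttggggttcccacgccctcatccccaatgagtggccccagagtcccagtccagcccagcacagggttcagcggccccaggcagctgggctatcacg

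The Pparg stretch held the C/EBP motif at 2 places, starting at positions -215 and -16 from the start. It was the only 1 of the 9 member starts with that motif, which 9.56% of all 32851 listed starts hold within the same length. The core site AGGTCA was found at 4 member starts (Adfp, Cd36 and the other 2 of Pparg) against 14.0% of all starts. The direct repeat (0.0335% of all starts) and the TEAD motif (12.6%) were found at none of the member starts. The S3-12 stretch held none of these letters. These matches describe the sequence only.

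S3-12, which encodes perilipin 4, a coat protein of nascent lipid droplets, moved most of the members. Its probe lies at chr17:55693925-55693984 (mm8, as are all probe positions here). On the log2 scale of normalized signal, the labelled WT cells stood at 7.97 and 7.94 at low density in Cy3 and Cy5, and at 12.39 and 12.26 at high density. The labelled KO cells stood at 10.26 and 10.47 at low density and at 6.96 and 6.51 at high density. All 8 values were well above background, and no values of any 2 groups overlapped. The order from highest to lowest was WT high, KO low, WT low and KO high.

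S3-12 thus rose with density in the labelled WT cells by 4.37 log2 units (4.29 and 4.44 on the 2 arrays), a 20.6-fold increase. In the labelled KO cells the change was -3.63 log2 units (-3.75 and -3.51), a 12.4-fold decrease. The KO effect less the WT effect, called the difference of the density effects from here on, was -8.00 log2 units, with -8.04 and -7.96 in the 2 dye orientations. At low density the labelled KO cells had 5.30-fold more S3-12 signal than the labelled WT cells, and at high density they had 48.3-fold less. The size of this difference varied from -9.68 to -7.88 over the alternative ways of processing, the largest being that of the authors' own log ratios.

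Adfp, which encodes perilipin 2, the coat protein found on droplets of nearly all cells, did not share this pattern. Its probe (chr4:86128003-86128062) gave 13.60 and 13.51 in labelled WT cells at low density and 12.95 and 12.78 at high density. The labelled KO cells gave 12.94 and 12.84 at low density and 12.48 and 12.41 at high density. The signal was far above background everywhere, lowest in the crowded KO cells, and the values of KO low and WT high overlapped. The density effect was -0.69 log2 units in labelled WT cells and -0.44 in labelled KO cells, both under the 2-fold size required for a call, and the difference of the effects was 0.25. The genotype differences, -0.67 at low and -0.42 at high density, were also under 2-fold.

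**Figure D1:**
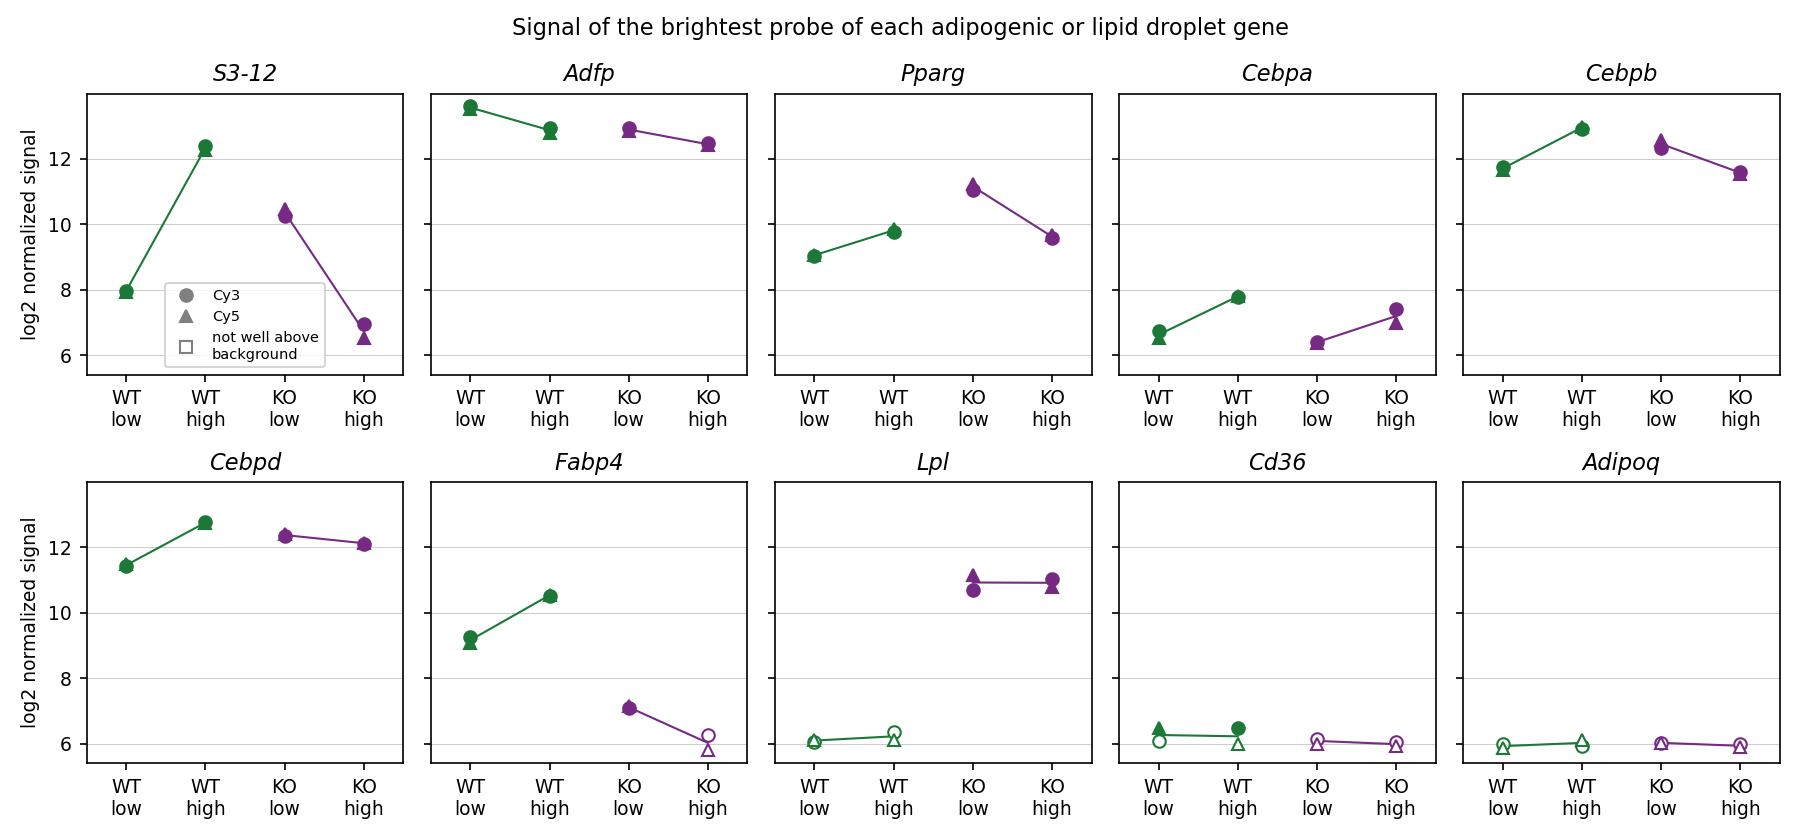
Log2 normalized signal of the brightest probe of each of the 10 genes (vertical axis) in the 4 combinations of genotype label and density (horizontal axis), with circles for Cy3, triangles for Cy5, open symbols for values not well above background and lines through the means of each pair. S3-12, Pparg, Cebpb, Cebpd and Fabp4 run upward in the labelled WT cells and downward in the labelled KO cells, Adfp runs slightly downward in both, and Lpl is above background in the labelled KO cells only.

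Pparg encodes the nuclear receptor that commands the adipocyte programme. Its probe (chr6:115455814-115455873) gave 9.03 and 9.07 in labelled WT cells at low density and 9.76 and 9.85 at high density. In labelled KO cells it gave 11.05 and 11.24 at low density and 9.57 and 9.67 at high density. The sparse KO culture stood above the other groups, no values of any 2 groups overlapped, and the groups of both genotypes came close to each other only at high density.

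The Pparg signal fell with density by 1.53 log2 units in labelled KO cells, a 2.88-fold decrease, while the labelled WT value was 0.76, a 1.69-fold increase that did not reach 2-fold. The difference of the effects was -2.29 log2 units, -2.21 and -2.36 in the 2 orientations. At low density the labelled KO cells had 4.28-fold more Pparg signal, and at high density the difference was -0.19 log2 units. The array carries this probe in 10 spots, which allows the error within an array to be seen. The ratio of high to low density was 0.82 ± 0.0366 and 0.69 ± 0.0443 (SD, 10 spots) on the WT arrays and -1.39 ± 0.0309 and -1.67 ± 0.0224 on the KO arrays. Spots of 1 array differed less than the 2 arrays of a pair did, and all 40 spots kept the direction of their genotype. Spots share 1 RNA and are no replicates of a culture.

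**Figure D2:**
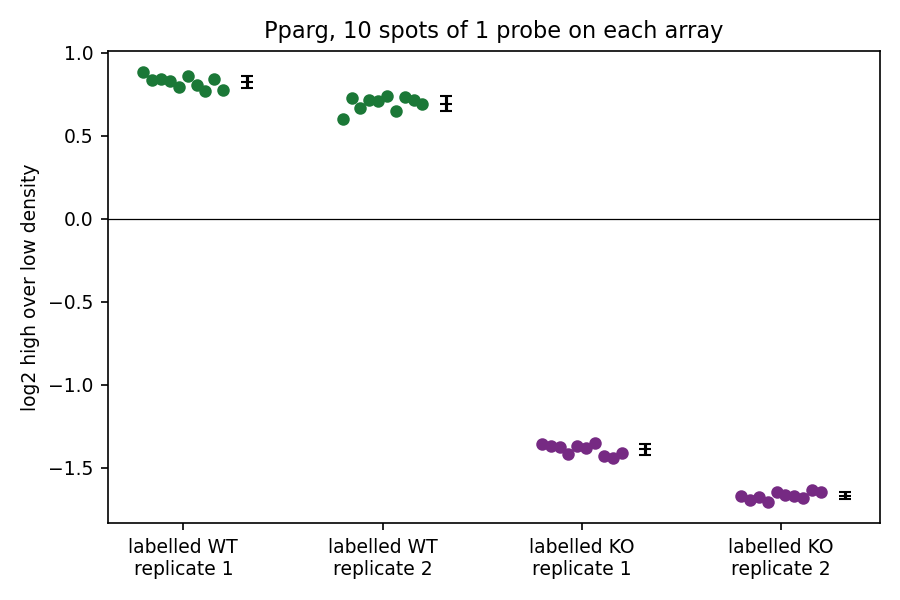
Log2 ratio of high to low density (vertical axis) for each of the 10 spots of the Pparg probe on each of the 4 arrays (horizontal axis), with the mean and SD of the spots in black. The WT spots lie between 0.60 and 0.88 and the KO spots between -1.70 and -1.35.

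Cebpb encodes C/EBPβ, an early activator of Pparg. Its brighter probe (chr2:167381552-167381610) gave 11.73 and 11.66 in labelled WT cells at low density and 12.91 and 12.98 at high density, against 12.33 and 12.57 in sparse and 11.60 and 11.53 in crowded KO cells. At this probe no values of any 2 groups overlapped, and the crowded WT culture was the highest. Cebpb rose 2.38-fold with density in labelled WT cells (1.25 log2 units on both arrays), and the labelled KO value was -0.89. The difference of the effects was -2.14 log2 units, and at high density the labelled KO cells had 2.60-fold less signal. The second probe (chr2:167381014-167381073) gave 0.87 in labelled WT and -1.02 in labelled KO cells, with a difference of -1.89. Between genotypes at high density it gave -0.94. Both probes thus ran in the same directions, on either side of the 2-fold line for these values other than the difference. At the second probe the sparse KO cells (mean 9.69) overlapped the crowded WT cells (9.62), and the sparse WT cells (8.75) overlapped the crowded KO cells (8.68).

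Cebpd encodes C/EBPδ, the partner of C/EBPβ in the early phase. Its probe (chr16:15801944-15802003) gave 11.41 and 11.49 in sparse and 12.76 and 12.75 in crowded labelled WT cells. The labelled KO values were 12.33 and 12.40 at low density and 12.11 and 12.12 at high density. The sparse WT culture was the lowest and none of the groups overlapped. Cebpd rose 2.47-fold in labelled WT cells (1.34 and 1.27 log2 units), the labelled KO value was -0.25, and the difference was -1.56. Neither genotype difference, 0.92 at low and -0.64 at high density, reached 2-fold.

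Cebpa, whose product C/EBPα sustains the differentiated state together with PPARγ, took another course. Its brighter probe gave 6.72 and 6.53 in sparse and 7.78 and 7.80 in crowded labelled WT cells, and 6.39 and 6.38 in sparse and 7.40 and 6.98 in crowded labelled KO cells. The values were low but well above background in all channels, and the crowded cultures were the higher ones in both genotypes. Cebpa rose 2.25-fold in labelled WT cells, and the labelled KO value was 0.80 (0.59 and 1.02). The difference of the effects was -0.37, and the genotype differences were -0.24 and -0.60. The WT rise went from 1.17 to 2.53 log2 units with the signals as the scanner software processed them. The labelled KO value likewise passed the 2-fold line, at 1.5 with an offset of 0, 1.70 with the processed signals, 1.63 with the authors' log ratios and 1.02 without KO replicate 1. A second Cebpa probe was well above background in only 1 of the 8 channels.

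Fabp4, the fatty acid carrier also known as aP2 and a standard target of PPARγ, was read by 3 probes. The brightest (A_51_P336833, chr3) gave 9.26 and 9.06 in sparse and 10.52 and 10.54 in crowded labelled WT cells. The labelled KO cells gave 7.07 and 7.15 at low density and 6.25 and 5.79 at high density, where it was not well above background on either array. The labelled WT cells were above the labelled KO cells at both densities, with no overlap between any 2 groups.

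Fabp4 rose 2.59-fold with density in labelled WT cells (1.28 and 1.47 log2 units). In labelled KO cells it was 2.12-fold lower at high than at low density (-1.27 and -0.90 log2 units), a size limited by background. The labelled KO cells had 4.14-fold less Fabp4 signal at low density, and 22.8-fold less at high density, the latter limited by background. As this probe was detected in sparse but not in crowded KO cells, it could only be called lower there with density. At high density it passed the filter through the labelled WT cells alone, so it could only be called lower in labelled KO cells. The second probe (A_51_P336830) gave 1.18 and -0.81 for the density effects in WT and KO and -1.79 and -3.78 for the genotype differences, and the third was well above background in 1 channel. The size of the KO fall depended on processing: it ranged from -4.20 with the authors' log ratios to -0.90 without KO replicate 1, and was -0.95 as a mean of probes, both under the 2-fold size. Sparse KO cells thus had the highest Pparg signal and less Fabp4 signal than either WT culture.

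Lpl, the secreted lipase that frees fatty acids from circulating lipoproteins, separated the genotypes at both densities. Its brighter probe (chr8:71835357-71835416) was not well above background in any WT channel, at 6.06 and 6.12 in sparse and 6.34 and 6.10 in crowded cells. In labelled KO cells it stood at 10.69 and 11.16 at low density and at 11.02 and 10.79 at high density. The labelled KO cells were at least 26.0-fold higher at low density and at least 25.1-fold higher at high density. The second probe (chr8:71830140-71830199) gave bounds of 8.09-fold and 6.66-fold. The density effect in labelled KO cells was -0.02 log2 units (0.10 and -0.14), and the values of the sparse and crowded KO cultures overlapped. Since Lpl passed the filter through the KO cells alone, it could only be called higher there, and the size followed the floor that was set: it was 8.96 log2 units at low density with the processed signals of the software.

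No group showed Cd36, the fatty acid receptor, or Adipoq, the adipocyte hormone, well above background on both its arrays. Both probes of Cd36 lay between 5.88 and 6.48 in all channels, and the 2 channels flagged well above background were both on WT replicate 2. The Adipoq probe lay between 5.87 and 6.12. These values do not show that the transcripts were absent.

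By their brightest probes, 7 of the 10 members were measured for the density effect in labelled WT cells, and 5 were called higher at high density (S3-12, Cebpa, Cebpb, Cebpd and Fabp4) and 0 lower. A call needed a mean of at least 1 log2 unit, that is 2-fold, and 1 direction on both arrays, and with no replicates it carries no p-value. Of all genes measured in that comparison, 9.41% were called higher and 6.09% lower. In labelled KO cells 8 members were measured, 0 were called higher and 3 lower (S3-12, Pparg and Fabp4), against 7.15% and 3.88% of all genes. Fabp4 passed the filter there through the sparse cells alone, so it could only be called lower. Cebpa, at 0.80, was called higher in labelled KO cells as well under the alternatives named above. The median over the members measured was 1.25 in labelled WT and -0.67 in labelled KO cells, and that over all genes was 0.06 in both.

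The difference of the density effects was called below 0 for 5 of 7 members (S3-12, Fabp4, Pparg, Cebpb and Cebpd) and above 0 for none, where 4.98% of all genes were called below and 4.56% above. Those 5 genes went up on both WT arrays and down on both KO arrays, which 7.92% of the 14170 genes measured in both did at any size. For Fabp4 the fall in labelled KO cells is limited by background. As the members were chosen with such results known, these shares say nothing about other genes of the programme.

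**Figure D3:**
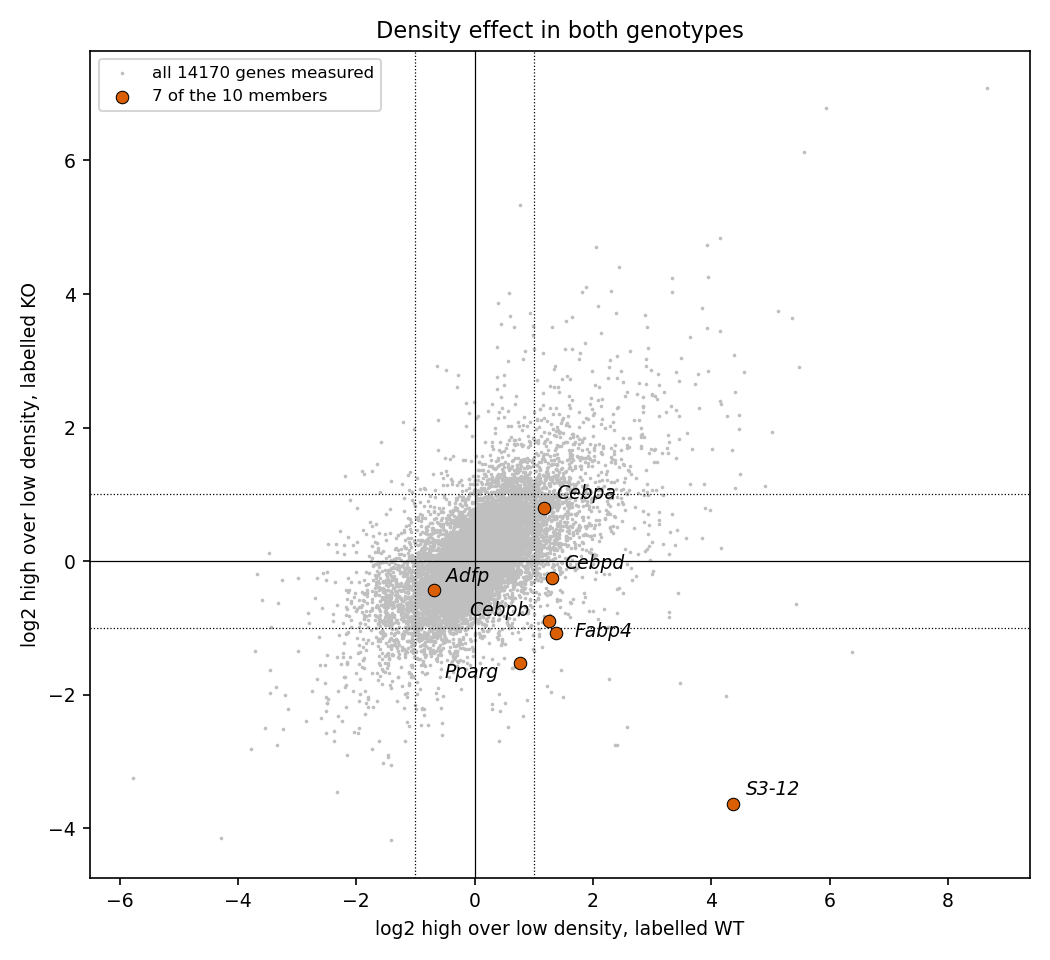
Log2 density effect in the cells labelled WT (horizontal axis) against that in the cells labelled KO (vertical axis), for all 14170 genes measured in both (grey) and 7 of the members (orange), with dotted lines at 1 and -1. S3-12 lies far to the lower right at 4.37 and -3.63, Fabp4, Pparg, Cebpb and Cebpd lie in the same quadrant, and Adfp and Cebpa lie among the grey points.

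Between genotypes, 8 members were measured at each density. At low density 3 were higher in the labelled KO cells (Lpl, S3-12 and Pparg) and 1 was lower (Fabp4), against 7.33% and 8.36% of all genes. At high density 1 was higher (Lpl) and 3 were lower (Fabp4, S3-12 and Cebpb), against 6.75% and 7.78%. Lpl at both densities and Fabp4 at high density passed the filter through 1 genotype alone. Each could only be called in that direction, so it adds nothing to a comparison with these shares. S3-12 was the only member called at both densities in opposite directions.

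**Figure D4:**
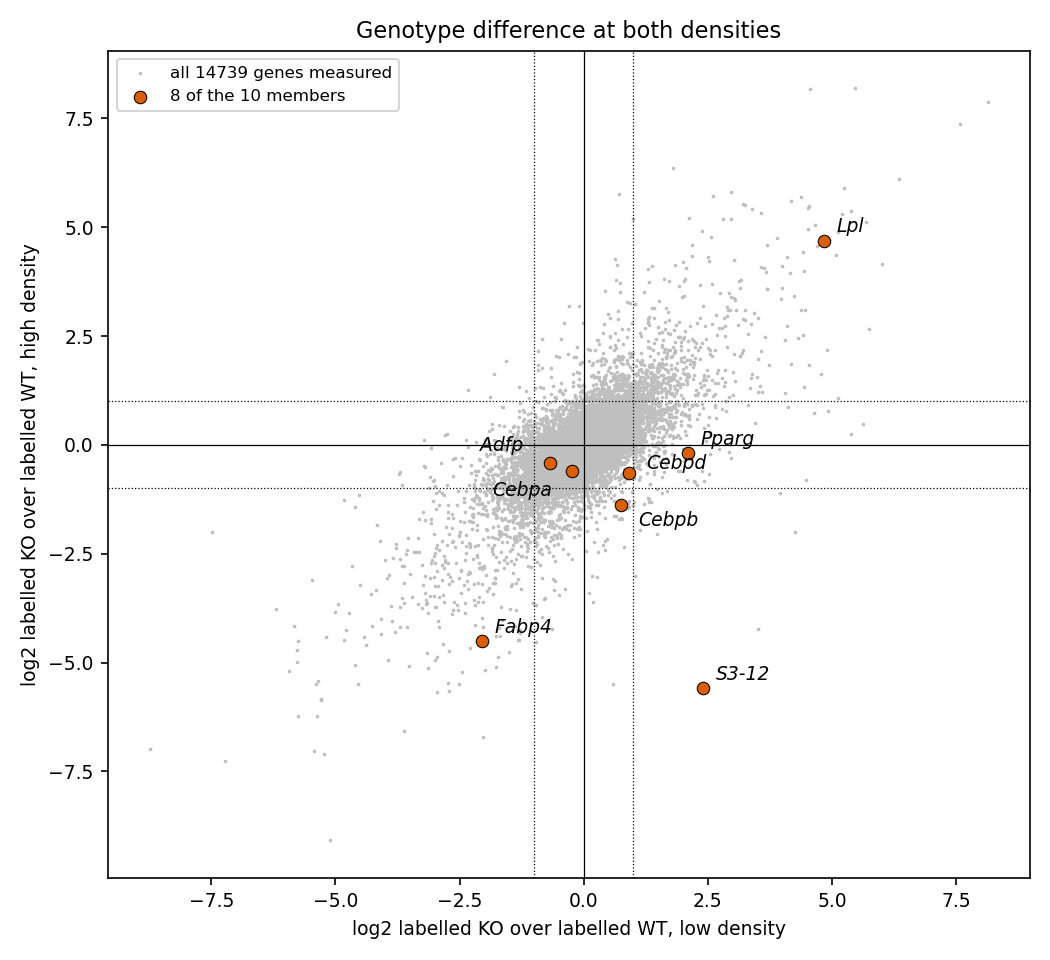
Log2 difference between the cells labelled KO and those labelled WT at low density (horizontal axis) and at high density (vertical axis), for all genes measured at both (grey) and 8 of the members (orange), with dotted lines at 1 and -1. Lpl lies high in both at 4.83 and 4.69, Fabp4 low in both at -2.05 and -4.51, and S3-12 at 2.41 and -5.59; the Lpl values and the Fabp4 value at high density are limited by background.

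The genes around the members were taken as lists by function, and each was represented by its brightest probe. In the list of PPAR and C/EBP relatives and partners, 10 of 14 genes on the array were above background in some group. With density 4 rose and 0 fell in labelled WT cells, and none was called in labelled KO cells. Here and in the lists that follow, the counts stand beside the shares of all genes given above, 9.41% higher and 6.09% lower with density in labelled WT cells and 7.15% and 3.88% in labelled KO cells. Ppargc1b, a coactivator of nuclear receptors in fat oxidation, showed 1.27 log2 units in labelled WT and -0.81 in labelled KO cells, and the difference of the density effects was -2.08, -2.02 and -1.79 at its 3 probes. Like Pparg it was higher in sparse KO cells, by 1.66 log2 units. The coactivator Ncoa1 rose by 1.22 and the corepressor Nrip1 by 1.03 in labelled WT cells, the other Nrip1 probes giving 1.02 and 0.73. No group showed Ppara, Ppard, Rxrg or Ppargc1a well above background on both its arrays.

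Fatty acid uptake and activation is the list that supplies the droplets. All 13 genes were measured, 5 rose and 0 fell in labelled WT cells, and 1 rose and 3 fell in labelled KO cells. The difference of the effects was called below 0 for 4 of 13 and above 0 for 0, against 4.98% and 4.56% of all genes, with a median of -0.42 where that of all genes was 0.02. Fabp3, a fatty acid carrier related to Fabp4, stood at 8.58 in sparse and 10.07 in crowded labelled WT cells and at 10.06 and 8.03 in labelled KO cells (means of 2 arrays). It rose by 1.49 and fell by 2.04, with a difference of -3.53 log2 units. Slc27a1, a fatty acid transporter, rose by 2.57 in labelled WT cells and gave -0.05 in labelled KO cells, with 1.27 and -0.25 at its second probe. Slc27a3 gave 1.07 and -0.03. Acsl1, which couples fatty acids to coenzyme A, gave 0.64 and fell by 1.08, a difference of -1.72, but its other 2 probes gave differences of -0.60 and -0.71. Vldlr, a lipoprotein receptor picked out after its values were seen, was the gene that rose in labelled KO cells, by 2.17, after 1.58 in labelled WT cells. Angptl4, an inhibitor of lipoprotein lipase and a PPAR target, rose by 1.04 in labelled WT cells and gave 0.09 in labelled KO cells.

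Other proteins of the lipid droplet and the lipases formed the next list. Of 22 genes on the array, 13 were measured in the density comparisons, 0 rose and 1 fell in labelled WT cells, and 1 rose and 1 fell in labelled KO cells. Cav1 (caveolin) fell by 1.11 in labelled WT cells, and D930001I22Rik (Fitm2, of droplet budding) fell by 1.05 in labelled KO cells, where its second probe gave -0.44. None was called for the difference of the effects, against 4.98% of all genes below and 4.56% above 0, and its median was -0.29. Plin (perilipin 1), 2310076L09Rik (Plin5), Cidea, Cidec and G0s2 were among the 9 that no group showed well above background on both its arrays. At low density the labelled KO cells had more Mgll, the monoacylglycerol lipase, by 1.43 log2 units, and more Abhd5, the activator of adipose triglyceride lipase, by 1.33. The second Abhd5 probe gave 0.44, under 2-fold. Of the other 2 Mgll probes, 1 gave 1.63 and the other was dim throughout. Bscl2, which encodes seipin of the droplet assembly site, was lower in crowded KO cells by 1.61 log2 units, a value that its second probe did not share (-0.10).

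In triacylglycerol synthesis, 12 of 14 genes were measured. The labelled KO cells were lower for 5 genes and higher for 0 at low density, and lower for 3 and higher for 0 at high density. Of all genes, 8.36% were lower and 7.33% higher at low density, and 7.78% and 6.75% at high density. Dgat2, an acyltransferase of the last step, differed by -1.84 log2 units at low and -2.37 at high density, with its other 2 probes between -0.49 and -1.21. Dgat1, the other enzyme of that step, differed by -1.05 at low and -0.90 at high density. Lpin1, a phosphatidate phosphatase, rose by 1.64 in labelled WT cells and gave 0.81 in labelled KO cells. Mogat2 fell by 1.83 with density in labelled WT cells, where 1 of the 2 high density values was well above background, and gave 0.40 in labelled KO cells, a difference of 2.23.

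Further PPAR target genes divided. Of 15 on the array, 10 were well above background in some group, and 2 rose and 1 fell in labelled WT cells with none called in labelled KO cells. Cpt1a, which brings fatty acids into mitochondria, rose by 1.01 in labelled WT cells and gave 0.07 in labelled KO cells, but its second probe gave 0.45 in labelled WT cells. Pdk4, a kinase that limits glucose oxidation, was higher in crowded KO cells by 1.13. No group showed Aqp7, Slc2a4, Ucp1 or Ucp3 well above background on both its arrays.

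Among transcription factors that promote adipogenesis, 2 rose and 1 fell of 15 measured in labelled WT cells, and 1 rose of 13 in labelled KO cells. Stat5a rose by 1.43 log2 units in labelled WT cells and gave 0.23 in labelled KO cells. Klf15, a factor of the late phase, was not well above background in sparse WT cells and was at least 2.42-fold higher in crowded ones, gave -0.28 in labelled KO cells, and its second probe was dim throughout. Egr2, a very early factor, went the other way: it fell by 1.03 in labelled WT cells, rose by 1.98 in labelled KO cells, and was lower by 3.07 in sparse KO cells. Ebf1 was higher in sparse KO cells by 1.55, with 0.68 at its second probe, and Prdm16, of brown fat, was at least 2.14-fold lower there. In crowded KO cells, where 1 of 2 arrays detected it, Prdm16 was lower by 1.66.

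The factors that restrain adipogenesis held the largest genotype differences of the 8 lists. Of 15 measured, 5 rose and 0 fell in labelled WT cells, and 3 rose and 1 fell in labelled KO cells. Dlk1 (also called Pref-1), a membrane protein that marks preadipocytes and is lost when they differentiate, had means of 9.02 and 11.41 in sparse and crowded labelled WT cells and 13.39 and 17.11 in labelled KO cells. It rose with density by 2.39 and 3.72 log2 units (1.74 in labelled WT cells at its second probe) and was higher in labelled KO cells by 4.38 and 5.70, where its second probe gave 4.62 and 6.14. Zfp521, a repressor of the adipocyte fate in precursors, rose by 1.30 and 3.51 and was higher in labelled KO cells by 1.99 and 4.20. Gata3, a factor of preadipocytes, rose by 1.94 in labelled WT cells and gave -0.74 in labelled KO cells, and Ddit3, a stress protein that binds C/EBP factors, rose by 1.58 and gave 0.24. Foxc2 was lower in labelled KO cells by 2.48 and 3.40. Wwtr1, which encodes TAZ and was picked out after its values were seen, was higher in labelled KO cells by 1.11 and 1.32. The group therefore ran in both directions for the difference of the effects, with 2 called above and 2 below 0, against 4.56% and 4.98% of all genes.

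**Figure D5:**
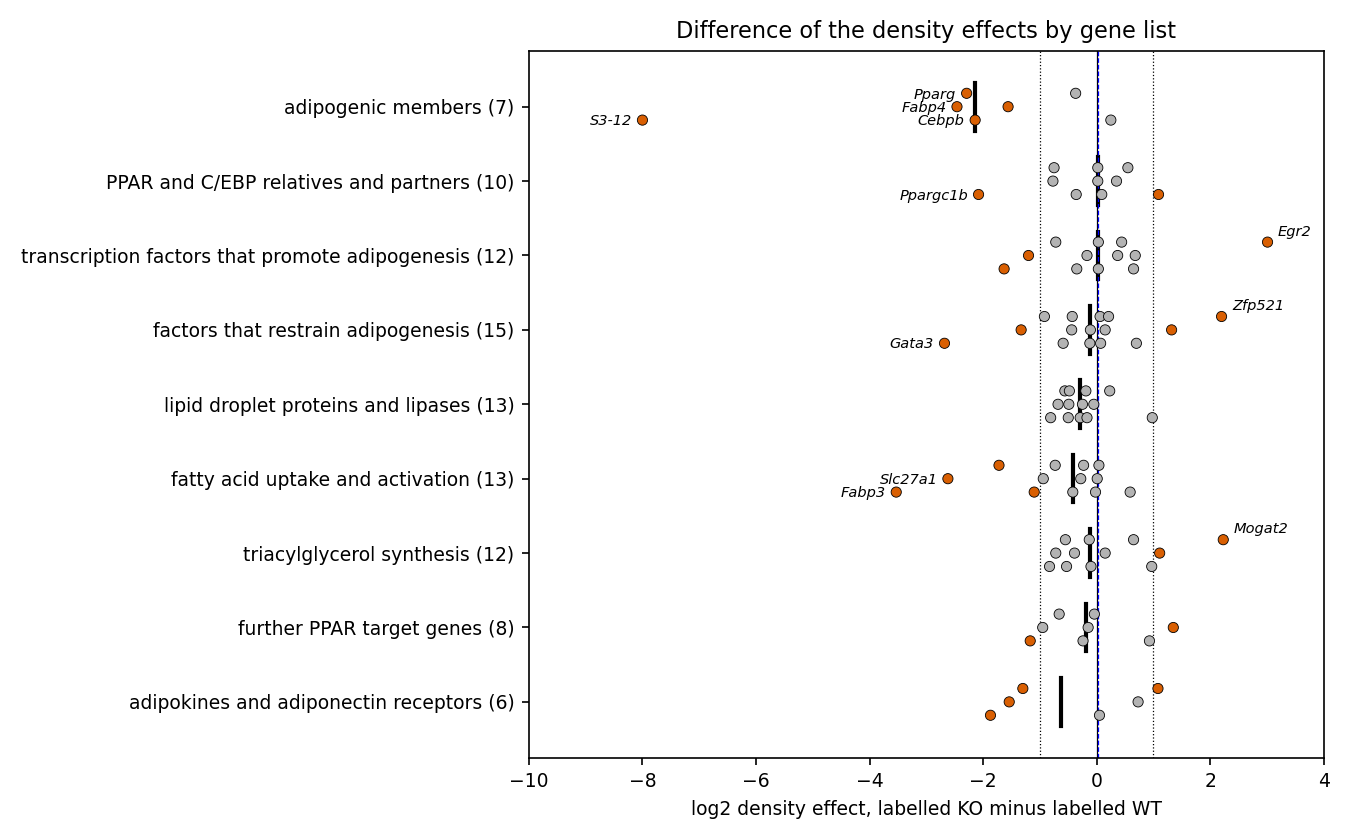
Difference of the density effects, labelled KO minus labelled WT, in log2 units (horizontal axis) for each gene measured in the members and in the 8 lists by function (rows, number of genes in brackets), with called genes in orange, the median of each list as a black bar, the median of all genes as a dashed line and dotted lines at 1 and -1. The members were chosen knowing such values; S3-12 lies at -8.00, Fabp3, Gata3 and Slc27a1 are the lowest of the other lists, and Egr2, Mogat2 and Zfp521 are the highest.

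Adipokines and adiponectin receptors had 7 genes measured in the density comparisons, of which 2 rose in labelled WT and 1 in labelled KO cells. Rarres2, which encodes chemerin, rose by 2.91 in labelled WT and 1.04 in labelled KO cells and was lower by 2.76 in crowded KO cells, its second probe giving 2.61, 0.68 and -2.5. Apln (apelin) rose by 1.42 and gave -0.12, with 1.08 and -0.35 at its second probe and the other too dim to be measured, and Pbef1 (Nampt) gave 0.76 and -0.54, differing by -1.30. Cdh13, a surface receptor for adiponectin, was higher in crowded KO cells by 1.95, a value its dimmer probe (0.32, not measured well enough to count) did not share. Leptin (Lep), resistin (Retn) and adipsin (Cfd) were not well above background.

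The genes most like S3-12 over the 8 channel values, each centred on its own mean, were sought among 16129 genes outside the members. They were Mt1, Phex, Igfbp5, Cml4 and Fabp3, with root mean square differences of 1.14, 1.21, 1.25, 1.31 and 1.34 log2 units. None was close, as the differences exceeded 1 log2 unit, and among them only Fabp3 and Igfbp5 were called lower with density in labelled KO cells, by 2.04 and 1.36. Igfbp5, a binding protein of insulin-like growth factors, gave 6.38 in labelled WT cells and a difference of -7.74. The genes most like Adfp (Opa3, TC1693899, Ahcy, NAP029480-1 and Ilk) were within 0.05 to 0.06 log2 units of it, and so small a pattern is shared by many genes.

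The cell types were checked by their markers. All 9 fibroblast markers were well above background in some group. Of 7 markers of mature adipocytes, only Lipe was on both arrays of a group, and Lep, Cfd, Plin, Cidec, Retn and Slc2a4 were not; the summed normalized signal of the 7 was 438 to 525 over all channels, which includes the offset added to each. Beside the members that were detected, 6 of these 7 markers were thus dim, which does not show that their transcripts were absent. Pdgfra, a fibroblast marker that adipocyte precursors carry, rose with density by 3.05 and 1.68 log2 units and was higher in labelled KO cells by 4.46 and 3.10, with 0.92 and 1.46, limited by background in labelled WT cells, at its dimmer probe. Col3a1 rose by 4.14 and 3.44, with smaller rises of 1.90 and 1.79 and values of 0.43 (limited by background in sparse WT cells) and 0.46 at its other probes. Fn1 fell by 1.60 in labelled WT cells and rose by 1.03 in labelled KO cells, where its other 3 probes gave 0.30 to 0.85.

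Some markers of other cell types moved with the genotype label. Of 11 macrophage markers 6 were above background, their sum was 1320 to 1430 in labelled WT cells, 2100 to 2320 in sparse and 4950 to 5980 in crowded KO cells, and Lyzs (lysozyme) was higher in labelled KO cells, at least 14.9-fold at low density and by 4.75 log2 units at high density, while Cd14 was lower by 1.79 and 1.59. The dimmer Lyzs probe gave 0.62 at high density, limited by background in labelled WT cells, and was not measured at low density. No group showed the defining markers Emr1, Ptprc, Itgam, Tyrobp and C1qa well above background on both its arrays. Of 12 endothelial markers 5 were above background, with sums of 2890 to 4160 in labelled WT cells and 25600 to 25700 in sparse and 12000 to 13900 in crowded KO cells. Most of that was Ptprb, at 14.03 and 13.34 in labelled KO cells, higher by at least 139-fold than the crowded WT cells. Its other 2 probes, limited by background in labelled WT cells, gave 3.49 and 1.91 log2 units at low and 2.12 and 0.73 at high density. Pecam1, Cdh5, Tek, Tie1 and Emcn were not well above background, and Eng was lower by 2.39 and 2.64. Lpl is also made by macrophages and is anchored on endothelium, and the part of such cells in its difference was not tested. Muscle and epithelial markers were above background for 3 of 8 and 2 of 6 genes, with Acta1 falling with density by 2.14 and 1.06 and Krt19 by 2.17 and 2.19.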

How the data were processed

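Mouse embryonic fibroblast RNA of 4 groups (2 genotype labels, 2 densities) was measured on 4 Agilent 2-colour arrays. Per the file headers, the authors extracted the arrays with Agilent Feature Extraction 10.5.1.1, and the deposited scanner files hold raw spot and local background intensity of Cy3 and Cy5, processed intensity, quality flags (other values of 0 or 1) and the log10 ratio of Cy5 to Cy3. The values of the deposited series matrix matched that log10 ratio within a small tolerance, with its sign reversed on the dye-swapped arrays. They are thus ratios of high to low density. Groups came from the labels, by the genotype field (Lats2), although the source names give LAT2.

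Background was removed from raw intensity by normexp (offset 50), which shrinks ratios of dim probes, normalized by loess within arrays and scaled between arrays by Aquantile (R 4.3.3, limma 3.58.1). Controls and spots with outlier flags were left out, and spots of a probe were averaged. A channel counted as detected by the software's well-above-background flag, set for 52.8% to 67.7% of features per channel. A density effect or genotype difference was measured where both arrays of 1 of the groups were detected, and called at a mean of 1 log2 unit or more in size with 1 sign in both dye orientations. Where a probe was dim on both arrays of a group, the fold is a lower bound. It sets the mean of the bright group against a floored mean of the dim group. Each dim channel counted as the higher of the probe's own signal and the lowest signal among detected probes. Where its own signal was the higher in both channels, as for Fabp4 in crowded KO cells, the bound equals the plain mean difference. Tables and figures used Python 3.11.15 with numpy 2.4.6, pandas 2.3.3 and matplotlib 3.10.9. The call rule was tested on simulated data.

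The members and all lists were chosen with earlier results of these data known. Named genes were every member probe; from each list the called genes, up to 5 by the size of the difference of density effects, and the gene with the largest genotype difference at each density; the 3 most changed genes of each marker list; and the 5 genes most like S3-12 and Adfp. Not all of them were given values, and some genes of the lists are counted but not reported here by name. Of 27745 gene and transcript names on the arrays, 19678 were found in RefSeq (GRCm38.p6), the source of current names and promoters. Probe positions are mm8, as annotated on the array, and were not converted or assigned to exons. Alternatives covered background correction, normalization, filters, threshold, probes per gene, outlier flags, the authors' ratios and leaving out each array or dye. Precision is limited by the number of arrays, and the dye swap covers technical error only.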

Additional observations from a re-analysis of the deposited data

Results flagged for a closer look

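Some genes went one way with density on both arrays labelled WT and the opposite way on both labelled KO. With 1 sample per genotype and density this difference was not tested. The following are differences of the density effects, KO minus WT, in log2 units. Among the members they were -8.00 for S3-12, -2.46 for Fabp4 (limited by background in crowded KO cells, and from -5.63 to -2.22 over the alternatives), -2.29 for Pparg, -2.14 for Cebpb and -1.56 for Cebpd, each up in labelled WT and down in labelled KO cells.

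Among the named genes of the lists, those up in labelled WT and down in labelled KO cells included Fabp3 (-3.53), Gata3 (-2.68), Slc27a1 (-2.62, and -1.51 at its second probe), Ppargc1b (-2.08), Acsl1 (-1.72), Klf15 (-1.63, limited by background in sparse WT cells), Egfl7 (-1.37), Pbef1 (-1.30), Slc27a3 (-1.10), Abhd5 (-0.81), Acadl (-0.66), Dgat2 (-0.53) and Mgll (-0.50). Those down in labelled WT and up in labelled KO cells included Egr2 (3.01), Fn1 (2.63), Mogat2 (2.23), Cdh13 (1.08) and Pdk4 (0.93). For several of them, such as Slc27a1 at -0.05 and Slc27a3 at -0.03, the KO effect itself was close to 0. Other probes did not share every rise: in labelled WT cells the second Abhd5 probe gave -0.06 and the other Dgat2 probes 0.06 and -0.01. The second Pbef1 probe gave a difference of -0.92, under 2-fold.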

How the results depend on the processing

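No called member value changed sign under any of the alternatives in which it could be measured. Over 59 recounts of the members called, 56 stayed within 1.5 times of the count reported. With a 1.4-fold threshold, 5 instead of 3 members were called for density in labelled KO cells, and 7 instead of 4 for genotype at low density. Requiring signal well above background in every channel left 2 instead of 4 members called for genotype at high density, since Lpl and Fabp4 could no longer be measured. The call of Fabp4 in labelled KO cells was lost without KO replicate 1 (-0.90) and with the mean of its measured probes (-0.95), and it could not be measured with the filter on every channel. Cebpa was called higher in labelled KO cells with an offset of 0 (1.5), the processed signals (1.70), the authors' ratios (1.63) and without KO replicate 1 (1.02), against 0.80. Median centring in place of loess gave Cebpb a fall of -1.26 in labelled KO cells. Without scaling between arrays the median genotype difference of all genes went from 0.03 to 0.27, and 6 members were called at low density. Counts over all genes moved by over 1.5 times in 15 of 59 recounts. For density in labelled WT cells, in labelled KO cells and for their difference, 2306, 1703 and 1351 genes were called, against 3927, 3259 and 2261 with the processed signals of the software and 3948, 3210 and 2258 with the authors' ratios. For genotype at low and high density, 2393 and 2269 were called, against 4278 and 4052 with the processed signals. With an offset of 0 in normexp, 2679 were called for density in labelled KO cells and 3599 for genotype at low density. The 1.4-fold threshold gave 6115, 5672 and 4457 for the density comparisons and 6497 and 6156 for genotype. No paired analysis was possible because each genotype and density gave 1 replicate and no test was made. Probes near background have only bounds, slide and genotype label cannot be told apart, and the Lats2 probes cannot check the labels.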
